A study of Mus musculus with 4 samples.

Results

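This account covers the nuclear genes of mitochondrial respiration, the mitochondrial ribosome and mitochondrial protein import in inflamed mouse colon with and without Elf4. Members were taken by gene symbol: the Nduf, Cox, Uqcr, Atp5 and Sdh families, Cycs, the mitochondrial ribosomal Mrpl and Mrps genes, and the Timm and Tomm translocase genes. The rule found 56 of the 4121 genes in the deposited table. The samples were Elf4-KO mice (Elf4-/-, 2 samples) and WT mice (2 samples), all C57BL/6, aged 8 weeks and given 3% dextran sulfate sodium (DSS). DSS damages the epithelium of the colon when drunk and so brings on colitis. Inflamed distal colon was taken at day 6 in both genotypes, so no group without colitis was compared. Elf4 is a transcription factor of the Ets family, and the labels name no promoter or cell type that restricts its loss. The table holds 1 FPKM value per gene and genotype (fragment counts scaled to transcript length and library size), with both samples of a genotype combined by the authors. No SD, n or test per gene can therefore be computed here, the depth per sample is unknown, and "rose" and "fell" rest on the authors' own call. The table lists only genes with a q-value of at most 0.05 and a difference of at least 2-fold, so every member had to differ in one direction or the other. Genes absent from it are not analysed here, and are called not listed. The smallest q in the authors' deposited table is 0.000372, and it applies to each named gene for which no other q is printed. Elf4 itself was at 3.51 FPKM in Elf4-KO colon and 16.4 FPKM in WT colon, 4.68-fold lower but not at 0, and which part of the gene was deleted is not stated.

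The respiratory chain is a series of protein complexes in the inner mitochondrial membrane. Complexes I and II take electrons from NADH and succinate, complex III passes them to the small carrier cytochrome c, complex IV hands them to oxygen, and complex V (ATP synthase) uses the resulting proton gradient to make ATP. Most subunits are encoded in the nucleus, translated in the cytosol and imported through the Tomm and Timm translocases, while a few core subunits are encoded by mitochondrial DNA and translated on the mitochondrial ribosome. Absorptive colonocytes rely on this chain to oxidize butyrate made by gut bacteria. Many promoters of nuclear respiratory genes are known to carry sites for NRF1 and for the Ets factor GABP.

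Promoter sequences are shown first because most members moved together, and because members on either side of the shared pattern can be compared letter by letter. All are RefSeq sequences on GRCm38.p6, written in the direction of the gene unless stated, and end at the base before the transcription start in RefSeq. Capitals mark matches to CCGGAAG (the core of an Ets site), to TGCGCA (the core of an NRF1 site) or to the longer palindromic NRF1 consensus, searched on both strands. Cox6a1 (chr5:115348959-115349208, minus strand) is shown because it carries all 3 motifs and encodes the second most abundant member in WT colon.
Cox6a1: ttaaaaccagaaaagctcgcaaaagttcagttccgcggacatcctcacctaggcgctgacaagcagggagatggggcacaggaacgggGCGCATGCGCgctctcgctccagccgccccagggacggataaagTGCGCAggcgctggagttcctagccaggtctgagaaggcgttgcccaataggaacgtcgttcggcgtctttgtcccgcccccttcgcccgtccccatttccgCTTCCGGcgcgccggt
Sdhd, of complex II, and Timm8b, an import chaperone, are divergent neighbors whose starts lie 51 bases apart (chr9:50603850-50603900, written in the direction of Timm8b), with 1 Ets match lying 12 bases before the start of Timm8b.
Sdhd and Timm8b: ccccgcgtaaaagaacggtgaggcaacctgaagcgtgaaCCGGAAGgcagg
Cycs (chr6:50566570-50566819, minus strand) is shown because it had the largest fall among members with a general tissue distribution.
Cycs: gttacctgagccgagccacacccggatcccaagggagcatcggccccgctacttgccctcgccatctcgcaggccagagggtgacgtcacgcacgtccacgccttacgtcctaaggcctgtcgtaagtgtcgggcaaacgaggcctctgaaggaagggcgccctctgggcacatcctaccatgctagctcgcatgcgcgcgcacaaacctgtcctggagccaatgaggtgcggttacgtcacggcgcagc
Cox7a1 (chr7:30183921-30184170, plus strand) and Cox6b2 (chr7:4753095-4753344, minus strand) are tissue-restricted subunit genes with the largest fall and the only rise, and neither window holds a match.
Cox7a1: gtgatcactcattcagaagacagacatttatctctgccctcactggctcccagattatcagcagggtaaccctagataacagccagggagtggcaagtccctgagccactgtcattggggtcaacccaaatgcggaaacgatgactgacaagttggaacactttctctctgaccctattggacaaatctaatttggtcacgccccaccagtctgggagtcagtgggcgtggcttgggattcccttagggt
Cox6b2: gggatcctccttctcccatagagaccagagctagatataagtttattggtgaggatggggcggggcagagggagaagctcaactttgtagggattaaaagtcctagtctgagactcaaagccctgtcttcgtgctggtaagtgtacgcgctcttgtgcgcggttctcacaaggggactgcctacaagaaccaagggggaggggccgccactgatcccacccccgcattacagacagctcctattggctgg

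Listed respiratory chain transcripts were lower in Elf4-KO colon across every complex, and 1 tissue-restricted subunit gene was higher. Of the 56 listed members, 55 fell and 1 rose, against 52.0% of all listed genes that were lower and 48.0% that were higher. The median log2 ratio of Elf4-KO over WT, computed on FPKM + 1, was -1.27 over the members and -0.76 over all listed genes. Among the 55 that fell the median fold was 2.46, while the median over all 2141 listed genes that were lower was 3.71. Differences of at least 4-fold were found in 4 members, all lower, beside 24.5% of listed genes that were lower and 12.9% that were higher by that much. The members thus fell almost uniformly in direction and mostly by a modest amount: 44 fell by less than 3-fold and 7 by 3-fold to 4-fold. Summed over members, the level was 5769 FPKM in Elf4-KO colon and 15102 FPKM in WT colon, so that 38.2% remained. The members were abundant transcripts, with 71.4% of them at 100 FPKM or more in WT colon, against 11.2% of all listed genes.

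**Figure D1:**
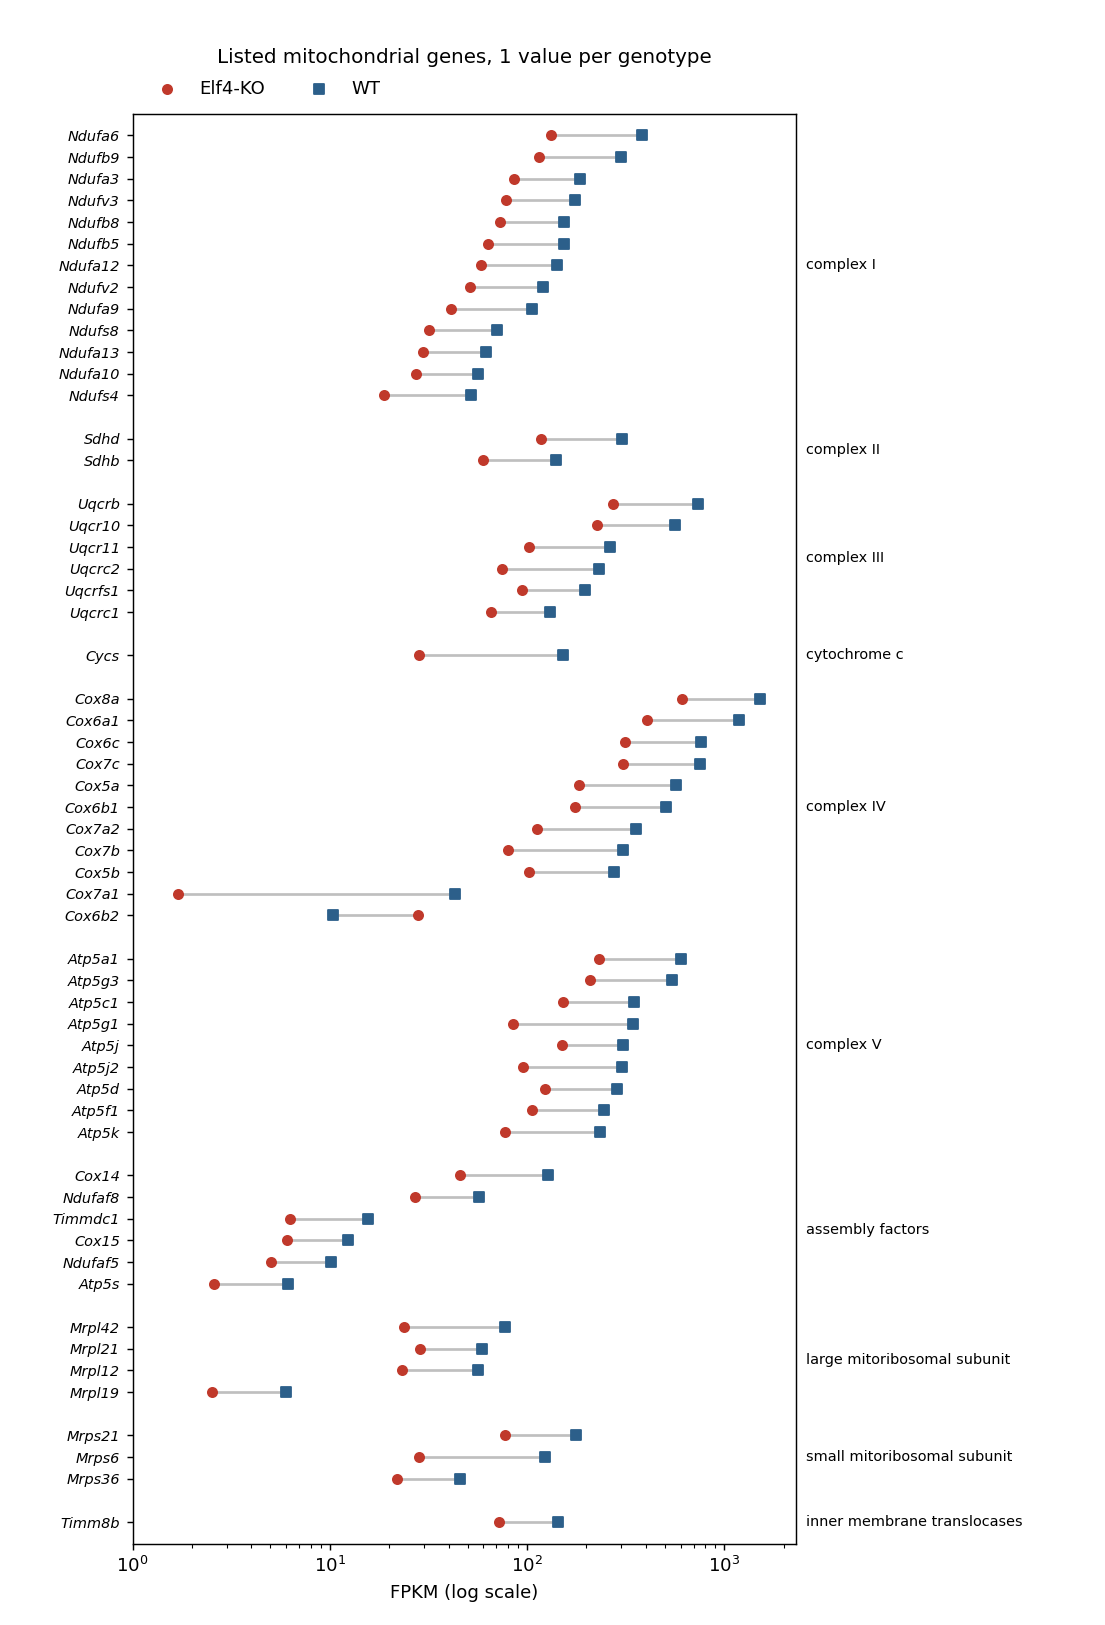
FPKM of the 56 listed members (log axis) in Elf4-KO colon (red circles) and WT colon (blue squares), 1 authors' value per genotype, ordered by group and WT level. The Elf4-KO value lies left of the WT value for 55 genes and right of it for Cox6b2 alone.

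Epithelial markers moved in the same direction as the members and by more. All 20 markers were listed and 20 fell, with a median fold of 11.7 and a summed level of 867 FPKM in Elf4-KO colon and 11088 FPKM in WT colon, 7.82% of the WT level. Krt19 was at 86.3 FPKM in Elf4-KO colon and 1672 FPKM in WT colon, and Krt8 at 144 FPKM in Elf4-KO colon and 2335 FPKM in WT colon. No epithelial marker was at 0. Of 10 leukocyte markers only 2 were listed, and both rose, while the others, Ptprc among them, were not listed. Over all annotated protein-coding genes, expressed or not, 17.5% were listed, and of all listed genes 48.0% were higher and 52.0% lower. Itgam rose to 90.5 FPKM in Elf4-KO colon, against 14.1 FPKM in WT colon. Fcer1g rose to 382 FPKM in Elf4-KO colon, against 169 FPKM in WT colon. Both summed to 473 FPKM in Elf4-KO colon and 183 FPKM in WT colon. The part of these epithelial and leukocyte shifts in the members' values was not tested. In bulk tissue, fewer cells of a type and less RNA per cell cannot be told apart.

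The share of genes that reached the table differed between functions. GENCODE M21 annotates 212 protein-coding genes under the symbol rule, of which 26.4% were listed, against 17.5% of all annotated protein-coding genes, expressed or not. For complexes I to V with cytochrome c, 42 of 86 genes were listed (48.8%), and for assembly factors 6 of 23. For genes with mitochondrial ribosomal symbols 7 of 78 were listed (8.97%) and for translocases 1 of 25 (4%), with 0 of 10 outer membrane translocase genes. The label of the group therefore describes mainly its respiratory chain part: the ribosome and import genes were covered by few members. No test of this difference was made, since a gene can be missing for its level, its spread or its fold. Listed respiratory chain members had a median of 94.7 FPKM in Elf4-KO colon and 269 FPKM in WT colon. Listed ribosomal members had a median of 23.6 FPKM in Elf4-KO colon and 59.1 FPKM in WT colon.

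Complex I, the NADH dehydrogenase, had 13 of 36 annotated genes listed, and 13 fell. Their levels ran from 18.8 to 133 FPKM in Elf4-KO colon and from 52.0 to 381 FPKM in WT colon. Only 2 of the 7 nuclear core subunits, which carry the redox centers, were listed. Ndufs8, an iron-sulfur core subunit, was at 31.8 FPKM in Elf4-KO colon and 70.1 FPKM in WT colon. Ndufv2, a core subunit of the NADH-binding module, was at 51.3 FPKM in Elf4-KO colon and 120.3 FPKM in WT colon. The other 11 are accessory subunits, which stabilize the complex without carrying electrons. Ndufa6 fell most, 2.87-fold, to 133 FPKM in Elf4-KO colon, against 381 FPKM in WT colon. Ndufs4, whose loss causes Leigh-like disease in mice and people, was at 18.8 FPKM in Elf4-KO colon and 52.0 FPKM in WT colon, a 2.76-fold fall. Ndufb9, another accessory subunit gene, was at 115.0 FPKM in Elf4-KO colon and 298 FPKM in WT colon, with 15.6% of its 50-base words found in transcripts of other genes. The folds of the 13 genes lay between 2.08 and 2.87.

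Complex II, succinate dehydrogenase, links the tricarboxylic acid (TCA) cycle to the chain, and 2 of its 4 genes were listed. Sdhb, the iron-sulfur subunit, was at 59.6 FPKM in Elf4-KO colon and 140.1 FPKM in WT colon (2.35-fold). Sdhd, a membrane anchor, was at 118 FPKM in Elf4-KO colon and 301 FPKM in WT colon (2.55-fold). Timm8b, which shares the short interval shown above with Sdhd, was at 72 FPKM in Elf4-KO colon and 144 FPKM in WT colon, a 2.0-fold fall at the table's own limit (q = 0.0391 in the authors' deposited table). Both genes of the divergent pair were thus lower, with Timm8b nearer to the limit of listing. The locus given for Timm8b is 14.9 times as wide as the annotated gene, so its value may include reads from outside it.

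Complex III had 6 of the 8 genes annotated under the symbol rule listed, the largest share of any complex, and 6 fell, by 2.0-fold to 3.10-fold. The gene of its cytochrome c1 subunit, Cyc1, lies outside the symbol rule but was also listed. Cyc1 was at 62.6 FPKM in Elf4-KO colon and 198 FPKM in WT colon, a 3.16-fold fall. Among the 6 genes under the rule, Uqcrc2, a core protein, fell most, to 75.0 FPKM in Elf4-KO colon, against 233 FPKM in WT colon. Its partner core protein gene Uqcrc1 had the smallest fold of the group, 2.0, with 65.3 FPKM in Elf4-KO colon and 131 FPKM in WT colon. The core proteins, which hold the complex together, thus marked both ends of the range of the 6 genes under the rule. Uqcrfs1, the Rieske iron-sulfur subunit that carries electrons, was at 94.5 FPKM in Elf4-KO colon and 196 FPKM in WT colon. Of the small subunits, Uqcr11 was at 103 FPKM in Elf4-KO colon and 262 FPKM in WT colon, and Uqcr10 at 227 FPKM in Elf4-KO colon and 563 FPKM in WT colon. The small subunits were the more abundant part of the complex in both genotypes. Uqcrb, the small ubiquinone-binding subunit, was at 273 FPKM in Elf4-KO colon and 739 FPKM in WT colon. Its locus in the table is 20.5 times as wide as the annotated gene and overlaps Ptdss1 (q = 0.0447 in the authors' deposited table), and 25.4% of its 50-base words occur in transcripts of other annotated genes, so its level is uncertain.

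Cytochrome c is the mobile carrier between complexes III and IV, and also triggers the apoptosome when released into the cytosol. Cycs (ENSMUSG00000063694, chr6:50562563-50566538, minus strand, GRCm38) was at 28.3 FPKM in Elf4-KO colon and 153 FPKM in WT colon. This 5.39-fold fall left 18.5% of the WT value and was larger than that of any complex subunit except Cox7a1. Of its 50-base words, 25.9% also occur in transcripts of 43 other annotated genes, the pseudogenes Cycs-ps2 and Cycs-ps3 among them.

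Complex IV, cytochrome c oxidase, had the most abundant members and the widest spread of changes, with 10 lower and 1 higher of 11 listed among 20 annotated genes. Cox8a, the most abundant member of all, was at 610 FPKM in Elf4-KO colon and 1523 FPKM in WT colon (2.50-fold). Cox6a1 was at 405 FPKM in Elf4-KO colon and 1184 FPKM in WT colon (2.92-fold). Both are the general forms of subunits that have a separate muscle form. Cox6c was at 315 FPKM in Elf4-KO colon and 760.2 FPKM in WT colon (q = 0.00128 in the authors' deposited table), within a locus 45.8 times as wide as annotated. Cox7c was at 308 FPKM in Elf4-KO colon and 757 FPKM in WT colon. These subunits surround the catalytic core, which mitochondrial DNA encodes. Cox7b fell most among the general subunits, 3.82-fold, to 80.1 FPKM in Elf4-KO colon, against 306 FPKM in WT colon. Cox5a and Cox5b, matrix-side subunits, were at 184 and 103 FPKM in Elf4-KO colon and at 569 and 277 FPKM in WT colon. The shares of 50-base words found in transcripts of other genes were 22.1% for Cox7c and 11.9% for Cox5b. Without the tissue-restricted pair described next, the folds of complex IV genes ran from 2.41 to 3.82.

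Tissue-restricted forms of complex IV subunits stood at both ends of the range of change. Cox7a1 (ENSMUSG00000074218, chr7:30184144-30186078, plus strand, GRCm38) encodes the form found in heart, skeletal muscle and brown fat. It was at 1.70 FPKM in Elf4-KO colon and 43.3 FPKM in WT colon, a 25.5-fold fall (q = 0.0128 in the authors' deposited table). The general form Cox7a2 was at 113 FPKM in Elf4-KO colon and 356 FPKM in WT colon, a 3.16-fold fall. Cox7a1 thus stood at 1.51% of the Cox7a2 level in Elf4-KO colon and at 12.2% in WT colon. Its q was less extreme than that of most members with far smaller folds, and which sample carried the WT signal cannot be told from a combined value. Cox6b2 (ENSMUSG00000051811, chr7:4751792-4753094, minus strand, GRCm38), a form known from testis, was the only member to rise. It was at 27.9 FPKM in Elf4-KO colon and 10.4 FPKM in WT colon, a 2.68-fold rise (q = 0.0321 in the authors' deposited table). The general form Cox6b1 was at 175 FPKM in Elf4-KO colon and 505 FPKM in WT colon. Cox6b2 stood at 16.0% of the Cox6b1 level in Elf4-KO colon and at 2.06% in WT colon. Of 12 tissue-restricted forms of respiratory subunits these 2 were listed, while of 12 general forms of such subunits 6 were listed and 6 fell. None of the 50-base words of Cox7a1 or Cox6b2 occurred in transcripts of another annotated gene.

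**Figure D2:**
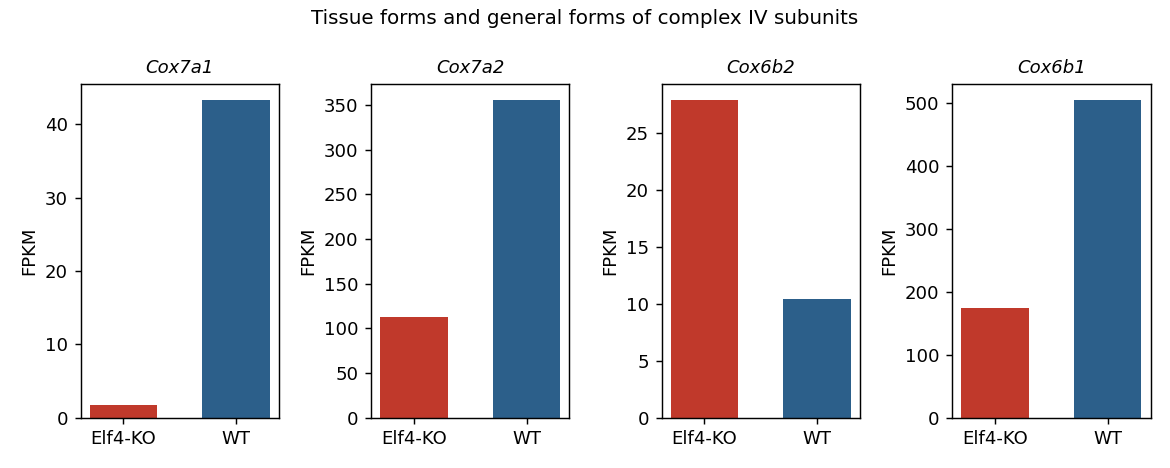
FPKM in Elf4-KO colon (red) and WT colon (blue) of the tissue-restricted genes Cox7a1 and Cox6b2 and of their general forms Cox7a2 and Cox6b1, 1 authors' value per genotype and no error bars, with a separate axis from 0 for each gene. Cox6b2 is higher in Elf4-KO colon and the other genes are lower.

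Markers of tissues that make such forms were few among listed genes. Of 19 striated muscle markers 2 were listed, and both fell: Eno3, muscle enolase, to 5.99 FPKM in Elf4-KO colon, against 50.9 FPKM in WT colon, and Ckm, muscle creatine kinase, to 1.35 FPKM in Elf4-KO colon, against 4.25 FPKM in WT colon (q = 0.0134 for Ckm in the authors' deposited table). Both summed to 7.34 FPKM in Elf4-KO colon and 55.1 FPKM in WT colon. Of 8 brown fat markers, Cox7a1 itself fell and Dio2, a thyroid hormone deiodinase gene, rose to 25.1 FPKM in Elf4-KO colon, against 1.35 FPKM in WT colon. Summed over this pair, the level was 26.8 FPKM in Elf4-KO colon and 44.7 FPKM in WT colon. The other striated muscle and brown fat markers, Ucp1 among them, and all 10 smooth muscle markers were outside the table. The part of muscle or fat tissue in the Cox7a1 value was not tested. Near Cox6b2, the cytokine gene Il11, chosen after its values were seen, lies 19279 bases away on the same strand. It was at 87.0 FPKM in Elf4-KO colon and 14.4 FPKM in WT colon. The nearer genes Fam71e2, Kmt5c and Gm24537, 132, 4278 and 12859 bases from Cox6b2, were not listed. A link between Il11 and Cox6b2 was not tested.

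Complex V, the ATP synthase, had 9 of 17 annotated genes listed and 9 fell. Atp5a1, the alpha subunit gene of the head, was at 230.4 FPKM in Elf4-KO colon and 604 FPKM in WT colon (2.62-fold). Atp5c1, of the rotating stalk, was at 152 FPKM in Elf4-KO colon and 348 FPKM in WT colon. Among the membrane subunits, Atp5g1 and Atp5g3 encode the same mature ring protein with different import signals. Atp5g1 fell 4.05-fold, to 85.0 FPKM in Elf4-KO colon, against 344 FPKM in WT colon. Atp5g3 fell 2.61-fold, to 209 FPKM in Elf4-KO colon, against 545 FPKM in WT colon. Atp5g1 therefore stood at 40.8% of the Atp5g3 level in Elf4-KO colon and at 63.1% in WT colon, and 10.2% of the 50-base words of Atp5g1 occur in transcripts of other genes. The small membrane subunits Atp5j2 and Atp5k fell 3.18-fold and 3.03-fold (q = 0.000694 for Atp5k in the authors' deposited table). Atp5j2 was at 94.9 FPKM in Elf4-KO colon and 302 FPKM in WT colon, and Atp5k at 77.1 FPKM in Elf4-KO colon and 234 FPKM in WT colon. The other 3 members, Atp5d, Atp5f1 and Atp5j, fell by 2.32-fold, 2.33-fold and 2.03-fold (q = 0.000998 for Atp5d and 0.0111 for Atp5j in the authors' deposited table). Their loci were 4.18, 2.57 and 4.63 times as wide as annotated.

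The summed levels of the complexes kept similar shares of WT. Over listed members, 41.2% of the WT level was left for complex I, 40.3% for complex II, 39.4% for complex III, 36.9% for complex IV and 38.2% for complex V. These shares are held below about 50% for genes that fell, because the table starts at a 2-fold difference. The order of members by level was also similar in both genotypes (Spearman's rho = 0.97 over 56 genes that share the same libraries, given as a description). Over the 2141 listed genes that were lower, rho was 0.91. A high value is likely wherever levels span far more than the folds, so it does not set the members apart. Median log2 ratios ran from -1.21 for complex I to -1.53 for complex IV.

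**Figure D3:**
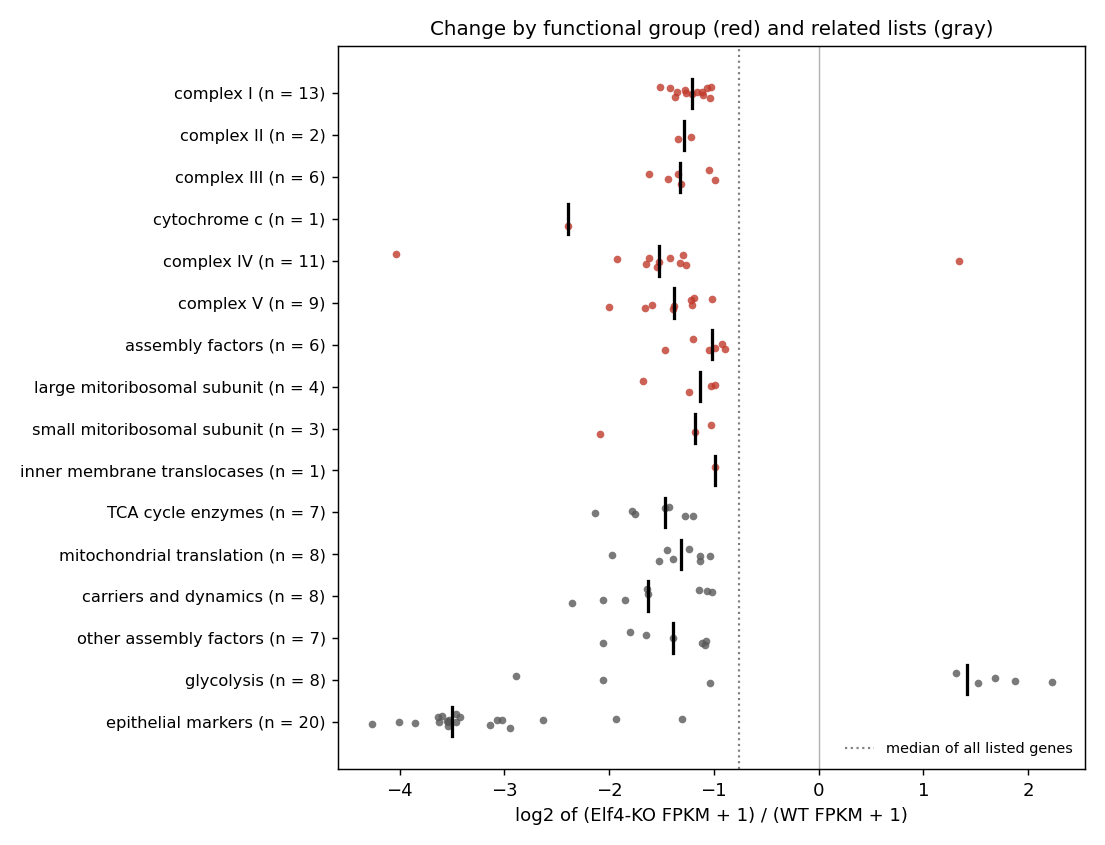
Log2 ratio of Elf4-KO over WT on FPKM + 1 for each listed gene, by functional group (red) and related list (gray), with black bars at medians and a dotted line at the median of all listed genes, -0.76. Members cluster between -2.39 and -0.89 except for Cox7a1 and Cox6b2, while epithelial markers have a median of -3.50 and glycolysis genes lie on both sides of 0. The gray list of other assembly factors includes Cyc1, a complex III subunit gene.

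Assembly factors build the complexes without staying in them, and the 6 listed fell by 2.03-fold to 2.80-fold. Cox14, needed for the early steps of complex IV, was at 45.7 FPKM in Elf4-KO colon and 128 FPKM in WT colon. Timmdc1, a complex I assembly factor despite its translocase-like symbol, was at 6.27 FPKM in Elf4-KO colon and 15.7 FPKM in WT colon (q = 0.00263 in the authors' deposited table). Ndufaf8, which acts with Ndufaf5 on complex I, was at 27.1 FPKM in Elf4-KO colon and 57.2 FPKM in WT colon (q = 0.00811 in the authors' deposited table). Ndufaf5 was at 5.02 FPKM in Elf4-KO colon and 10.2 FPKM in WT colon, with the largest q among members, 0.0419 in the authors' deposited table. The Ndufaf genes thus fell close to the limit of listing. Cox15, for the heme of complex IV, was at 6.05 FPKM in Elf4-KO colon and 12.4 FPKM in WT colon (q = 0.00954 in the authors' deposited table). The Cox15 locus was 4.0 times as wide as annotated. Atp5s, a coupling factor named after the ATP synthase, was at 2.59 FPKM in Elf4-KO colon and 6.14 FPKM in WT colon (q = 0.0259 in the authors' deposited table). These genes were the least abundant group, with a median of 6.16 FPKM in Elf4-KO colon and 14.0 FPKM in WT colon.

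Under the symbols of the mitochondrial ribosome, 4 large subunit and 3 small subunit genes were listed, and 7 fell. Mrpl42 was at 23.6 FPKM in Elf4-KO colon and 77.8 FPKM in WT colon (3.29-fold). Mrpl12, which also binds the mitochondrial RNA polymerase, was at 23.3 FPKM in Elf4-KO colon and 56.1 FPKM in WT colon (2.41-fold). Mrpl21 and Mrpl19 were at 28.5 and 2.52 FPKM in Elf4-KO colon and at 59.1 and 6.01 FPKM in WT colon (q = 0.0157 and 0.0253 in the authors' deposited table). Their loci were 3.21 and 5.22 times as wide as annotated. All 4 large subunit genes were below 100 FPKM in both genotypes. Mrps21 was at 77.6 FPKM in Elf4-KO colon and 178 FPKM in WT colon (q = 0.000998 in the authors' deposited table). Mrps36 was at 22 FPKM in Elf4-KO colon and 45.8 FPKM in WT colon (q = 0.0146 in the authors' deposited table). It keeps its ribosomal symbol, by which it is counted here, but is now known as a subunit of the oxoglutarate dehydrogenase complex. Mrps6 had the largest fall of the ribosomal genes, 4.37-fold, with 28.3 FPKM in Elf4-KO colon and 124 FPKM in WT colon. The Mrps6 locus contains the listed inositol transporter gene Slc5a3, and 17.3% of its 50-base words occur in transcripts of other genes, Slc5a3 included. Slc5a3 fell to 4.28 FPKM in Elf4-KO colon, against 13.7 FPKM in WT colon (q = 0.000998 in the authors' deposited table), and how reads were split between the overlapping genes is unknown. Of 84 cytosolic ribosomal protein genes, a list added after the data were seen, 0 were in the table.

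Listed genes of other mitochondrial functions fell as well. Over 8 further lists of 178 genes, 37 were listed and 37 fell, against 52.0% of all listed genes that were lower. Of all annotated protein-coding genes, expressed or not, 17.5% were listed. Of 19 TCA cycle genes 7 were listed (median log2 ratio -1.47), with Suclg2, a succinyl-CoA ligase subunit, at 29.3 FPKM in Elf4-KO colon and 132 FPKM in WT colon, and Pcx, pyruvate carboxylase, at 5.24 FPKM in Elf4-KO colon and 20.5 FPKM in WT colon (q = 0.00128 for Pcx in the authors' deposited table). Of 35 mitochondrial translation genes 8 were listed (median -1.31). The leucyl-tRNA synthetase gene Lars2 was at 10.1 FPKM in Elf4-KO colon and 42.4 FPKM in WT colon, and the initiation factor gene Mtif3 at 6.14 FPKM in Elf4-KO colon and 19.5 FPKM in WT colon (q = 0.00211 for Mtif3 in the authors' deposited table). Of a further list of 31 genes, of assembly factors and the complex III subunit Cyc1, 7 were listed (median -1.39). The largest log2 changes were those of the complex IV factors Coa4 and Coa3. Coa4 was at 2.26 FPKM in Elf4-KO colon and 12.6 FPKM in WT colon. Coa3 was at 30.1 FPKM in Elf4-KO colon and 107 FPKM in WT colon (q = 0.0107 for Coa3 in the authors' deposited table). Of 25 carrier and dynamics genes 8 were listed (median -1.63), with the aspartate and glutamate carrier Slc25a13 at 1.85 FPKM in Elf4-KO colon and 13.6 FPKM in WT colon and the dicarboxylate carrier Slc25a10 at 11.9 FPKM in Elf4-KO colon and 52.4 FPKM in WT colon. Of 27 import partners only Gfer and Immp1l were listed. Gfer, an oxidase of the intermembrane space, was at 5.22 FPKM in Elf4-KO colon and 12.9 FPKM in WT colon, and Immp1l, a signal peptidase, at 20.5 FPKM in Elf4-KO colon and 43.9 FPKM in WT colon (q = 0.00211 for Gfer and 0.00335 for Immp1l in the authors' deposited table). Across all Slc25 carriers, a list added after the data were seen, 12 of 47 were listed, 9 lower and 3 higher. The 3 higher ones, Slc25a47, Slc25a27 and Slc25a29, were low in both genotypes. They were at 1.60, 2.31 and 3.48 FPKM in Elf4-KO colon and at 0.441, 0.813 and 1.03 FPKM in WT colon. Their q-values were 0.0468, 0.012 and 0.00753 in the authors' deposited table. The listed genes of this carrier family therefore did not all move one way, though the rises were at low levels.

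From a list of 15 genes of the mitochondrial genome, which leaves out its other genes, 1 was listed. It was mt-Rnr1, a ribosomal RNA gene, at 462 FPKM in Elf4-KO colon and 939 FPKM in WT colon (q = 0.00128 in the authors' deposited table). Of 11 genes for replication and transcription of mitochondrial DNA, 0 were listed. Of 15 transcription regulators 4 were listed and fell. Esrra, a nuclear receptor that activates respiratory genes, was at 14.2 FPKM in Elf4-KO colon and 51.3 FPKM in WT colon (q = 0.0419 in the authors' deposited table). Ppargc1a, the coactivator PGC-1alpha, was at 0.978 FPKM in Elf4-KO colon and 3.34 FPKM in WT colon (q = 0.0393 in the authors' deposited table). The other 2 were Ppargc1b and Ppara (q = 0.00156 and 0.0484 in the authors' deposited table). Nrf1 and the GABP genes were not listed.

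Listed glycolysis genes moved both ways: of 24 genes 8 were listed, 5 higher and 3 lower. Over all listed genes, 48.0% were higher and 52.0% lower, and no test of the split among these 8 genes was made. Slc16a3, the lactate exporter gene, rose to 72.7 FPKM in Elf4-KO colon, against 14.8 FPKM in WT colon, while Eno3, the muscle enolase named above, fell.

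**Figure D4:**
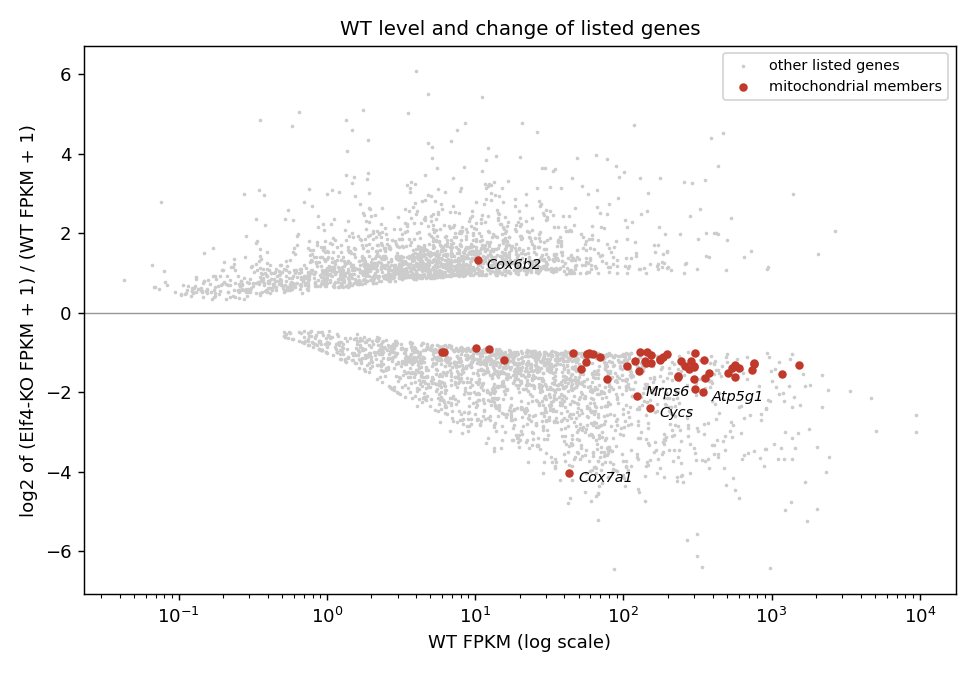
WT FPKM (log axis) against the log2 ratio of Elf4-KO over WT on FPKM + 1 for the listed members (red) and other listed genes (gray), without the 29 genes at 0 in WT. Most members lie among the abundant transcripts and close to the edge set by the 2-fold limit, and Cox7a1, Cycs, Mrps6 and Atp5g1 lie further below.

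Promoter letters were compared with those of other genes as a description. RefSeq gave a window of 300 bases, 250 before to 50 after the start, for 48 of the 56 members, taking the outermost start of each gene. CCGGAAG or its complement occurred in 15 of the 48 member windows (31.2%). The share was 13.4% for listed genes that were lower (1528 windows for 2141 genes) and 8.76% for all listed genes (2924 windows for 4121 genes). It was 9.14% of 27025 gene windows in all. The 156 annotated members that were not listed were not counted apart, so these shares cannot tell listed members from those not listed. TGCGCA occurred in 9 member windows (18.8%), against 8.07% of all windows, and the longer NRF1 consensus in 4 (8.33%), against 0.981%. The windows of Sdhd and Timm8b overlap, so that 1 CCGGAAG site, the one shown above, and 1 TGCGCA site are counted in both. For CCGGAAG, the median log2 ratio was -1.22 over the 15 genes with a match and -1.27 over the 33 without. For TGCGCA it was -1.35 over the 9 genes with a match and -1.23 over the 39 without. The longer NRF1 consensus gave -1.27 over the 4 genes with a match and -1.27 over the 44 without. The 33 windows without CCGGAAG included those of the 4 members that fell most, Cox7a1, Cycs, Mrps6 and Atp5g1, and that of Cox6b2. Of these genes only Mrps6 had a TGCGCA match. A match is no evidence of binding, and its absence says only that these letters are not in the window.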

How the data were processed

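RNA sequencing of distal colon from Elf4-KO and WT mice with DSS colitis was used, 2 samples per genotype. Total RNA came from a Trizol extraction and went into a Vazyme mRNA library kit, per the labels' protocols. The submitters' processing notes list Bowtie 0.12.2, Cufflinks 2.2.1 and mm8 with no roles attached. Strand use is not stated. Per the file headers, the authors deposited 1 FPKM value per gene and genotype, and a p-value and q-value of their own comparison. No listed gene had q above 0.05 or a fold under 2 (tolerance 1e-05). Whether both samples of a genotype were separate animals is not stated. Of 4121 gene identifiers 4116 were found in GENCODE M21. Ends were equal for 76.8% and starts, after adding 1, for 77.5%, so coordinates are on GRCm38 although mm8 is named, and count from 1.

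Log2 ratios used FPKM + 1, which understates the change of low genes, and folds used FPKM alone. Members were grouped by symbol into complexes I to V, cytochrome c, assembly factors, ribosomal subunits and translocases. Copies were sought as 50-base words of a member's GENCODE transcripts found, on the same strand, in transcripts of other genes: 27 members had none and 9 had over 10%. The locus of 12 members was over 2 times as wide as annotated, and 2 overlapped another listed gene. The members and lists were chosen with earlier results of these data known. The text names Elf4, members that rose, the 3 largest log2 changes per group (every member of groups of 5 or fewer), the 5 highest and 5 lowest WT levels, the 3 smallest folds, listed tissue forms and their general forms, and the 2 largest log2 changes per related list, with at least 1 FPKM where changes are ranked. Others were named to complete a complex, a list or a set of neighbors, after their values were seen. The summaries were tested on simulated data. Python 3.11.15 was used with numpy 2.4.6 and pandas 2.3.3 for the tables, scipy 1.17.1 for the rank correlation and matplotlib 3.10.9 for the figures.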

Additional observations from a re-analysis of the deposited data

How the results depend on the processing

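No paired analysis was possible because replicates are combined in 1 value per genotype. For the same reason no sample was left out in turn. Shifts of over 1.5 times are given. Restriction to 4-fold differences left by construction 4 lower and 0 higher members, with a median log2 ratio of -2.24 over members, -4.04 for complex IV, -2.0 for complex V and -2.09 for the small ribosomal subunit. Complexes I, II and III, assembly factors, the large ribosomal subunit and translocases then had no member left. Keeping q of at most 0.01 in the authors' deposited table removed 11 members, Cox6b2, Cox7a1 and Timm8b among them, and left 45 lower and 0 higher members and no translocase. Leaving out tissue forms also left 0 higher members. Centring on the median of all listed genes, -0.76, gave medians of -0.51 over members, -0.46, -0.52, -0.57, -0.77 and -0.63 for complexes I to V, -1.63 for cytochrome c, -0.26 for assembly factors, -0.37 and -0.43 for the large and small ribosomal subunits and -0.23 for Timm8b, and turned none. The log2 ratio of Cox7a1 was -4.67 without a pseudocount. FPKM minimums of 1 and 5, pseudocounts of 0.1 and 0, and leaving out overlapping loci or assembly factors moved neither the counts nor the medians of the remaining groups that far. Leaving out members with shared words, which drops Cycs and so cytochrome c, or with wide loci, which drops Timm8b and so the translocases, moved no count or median of the remaining groups that far either. Both were chosen after seeing the data.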
